A study of Zea mays with 6 samples.

Results

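The maize genes GRMZM2G011598, GRMZM2G430849, GRMZM2G181605, GRMZM2G031001 and GRMZM2G146380 encode NAC domain transcription factors, and they are 5 of the 39634 genes in the deposited files. They belong to the 8 NAC genes that the study lists among genes induced by a first dehydration stress (S1) and induced further by the third (S3). They were thus selected on the transcript levels of the same 6 libraries, in both steps, so their levels and fold changes are given as a description, with no test. Leaves were taken from 2-week-old seedlings of the inbred line B73, grown at 22 °C with 12 h of light. W seedlings were watered and are the control, S1 seedlings went through a single air-drying of 2 h, and S3 seedlings were air-dried for the third time, each earlier drying having been followed by 22 h of rehydration. Each condition had 2 biological replicates made of leaves pooled from several plants of this 1 inbred line. Rehydrated leaves from before the third drying are not among the 6 libraries, so in these data a level that was already raised before the third drying and a rise during it cannot be told apart.

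NAC proteins are plant transcription factors with a conserved DNA-binding domain at the amino terminus and a variable region that regulates transcription. The family is known for roles in the response to abscisic acid (ABA), the hormone that accumulates in drying leaves, in drought tolerance and in leaf senescence. The study's annotation gives Arabidopsis relatives for the 5 genes. These relatives include NAP, which promotes leaf senescence in Arabidopsis, NAC019, which acts in ABA and jasmonate responses there, and NAC046, which promotes chlorophyll breakdown there.

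The NAP and NAC047 relatives are GRMZM2G011598, listed by the study under ABA and salicylic acid signalling, and GRMZM2G430849, listed under responses to ABA and jasmonate. The NAC046 and NAC100 relatives are GRMZM2G181605, listed under ABA and ethylene, and GRMZM2G031001, listed under heat acclimation. GRMZM2G146380 has relatives in both groups, NAC047 and NAC019 as well as NAC046 and NAC100, and is listed under ABA and jasmonate responses. The authors' table describes GRMZM2G430849 as a NAC domain transcription factor. It describes GRMZM2G181605 as NAC domain-containing protein 21/22, a name that differs from the NAC046 and NAC100 relatives above. The table has no description for the other 3, whose NAC identity comes from the study. GRMZM2G011598 is the member that the study also followed by real-time PCR, which included a watered recovery and was not used here. Its primers are shown because they are the designed sequences that read this transcript, 5′ to 3′ and 20 bases each:
GRMZM2G011598 forward: tgtgccggatctacaagaag
GRMZM2G011598 reverse: gtacgggttatcgtcgaagc
RefSeq places GRMZM2G430849 and GRMZM2G181605 on chromosome 7, in a newer B73 assembly than the RefGen_v2 genome to which the reads were aligned, so no coordinates are given.

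Transcript levels are in FPKM, fragments scaled by transcript length and by the mapped fragments of the library, which can be compared between genes. Changes are on the log2(FPKM + 1) scale, which understates the change of genes with low FPKM, and each has its standard error (SE) from a limma fit of all 6 libraries. Calls needed a log2 fold change of 1 or more in size together with an adjusted p of 0.05 or less. A higher level in leaf RNA can come from more transcript per cell or from more cells that express the gene, and these cannot be told apart in bulk leaves.

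GRMZM2G011598, the NAP relative with primers above, had 5.08 and 5.29 FPKM in the W libraries, 17.5 and 42.1 in those of S1, and 222.7 and 145.9 in those of S3. The conditions did not overlap, and the S1 replicates lay 2.40-fold apart. The mean was 5.19 ± 0.15 in W, 29.8 ± 17.3 in S1 and 184.3 ± 54.3 FPKM in S3 (SD, n = 2), a rise of 5.75-fold and then of a further 6.18-fold. On the log2 scale the first step was 2.19 (S1 against W), the second 2.68 (S3 against S1) and both together 4.87 (S3 against W), each with SE 0.38. The S1 replicates decided which step was the larger, with 2.80 and then 2.07 without replicate 1 of S1 and 1.58 and then 3.29 without replicate 2. The smallest ratio of any S3 to any S1 library was 3.47.

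GRMZM2G430849, the other NAP relative, had the highest level of the 5 in every condition. It had 12.2 and 10.5 FPKM under W, 104.9 and 135.3 under S1, and 268.9 and 298.3 under S3. Here the first stress gave most of the rise, with the mean 10.6-fold above W in S1 and 2.36-fold above S1 in S3. The log2 fold changes were 3.28 and 1.24 (SE 0.19). Among the 30 tested NAC family genes it ranked 9 by mean level in W, 3 in S1 and 1 in S3. It was chosen for rising levels, so nothing is read from the change of rank.

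GRMZM2G181605, a NAC046 relative, was the lowest of the 5 in W and in S1. It had 1.28 and 0.845 FPKM in watered leaves, 2.92 and 3.91 in the first stress, and 43.3 and 21.2 in the third. Its mean rose 3.22-fold in the first step and 9.43-fold in the second. The log2 fold changes were 1.10 and 2.84 (SE 0.32). The first was not called in the fit of all 6 libraries, but was with only the 4 W and S1 libraries fitted. The second fold change was close to those of GRMZM2G146380 and GRMZM2G011598, and the order of these 3 turned with the pseudocount and with the library left out. Its S3 replicates lay 2.04-fold apart, yet the lower of them was 5.42-fold above the higher S1 library.

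GRMZM2G031001, the other NAC046 relative, changed least from W to S3. It had 5.51 and 5.02 FPKM in the W libraries, 14.05 and 12.1 in those of S1, and 42.8 and 16.3 in those of S3. The libraries of the conditions did not overlap, but the lower S3 library was only 1.16-fold above the higher S1 library, and the S3 replicates lay 2.62-fold apart. The log2 fold changes were 1.16 for S1 against W and 0.97 for S3 against S1 (SE 0.38), and neither was called. The change of S3 against W, 2.14, was called. Without replicate 1 of S3 the change of S3 against S1 was 0.31, and without replicate 2 of S3 it was 1.64, so 1 library set the size of the second step. The study's list was made from its own calls, which were not used. By the calls made here the members nearest the threshold in S3 against S1 were GRMZM2G430849 inside, at 1.24, and GRMZM2G031001 outside. In S1 against W they were GRMZM2G146380 inside, at 1.49, and GRMZM2G031001 and GRMZM2G181605 outside, at 1.16 and 1.10. Both of the latter passed the fold threshold and missed the call on the adjusted p alone.

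GRMZM2G146380, with relatives in both groups, had 1.36 and 1.70 FPKM under W, 4.55 and 8.02 under S1, and 69.9 and 33.6 under S3. The mean rose 4.10-fold and then 8.23-fold, to 33.8-fold above W. The log2 fold changes were 1.49 and 2.81 (SE 0.36). Again the second step was the larger, and the conditions did not overlap.

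**Figure D1:**
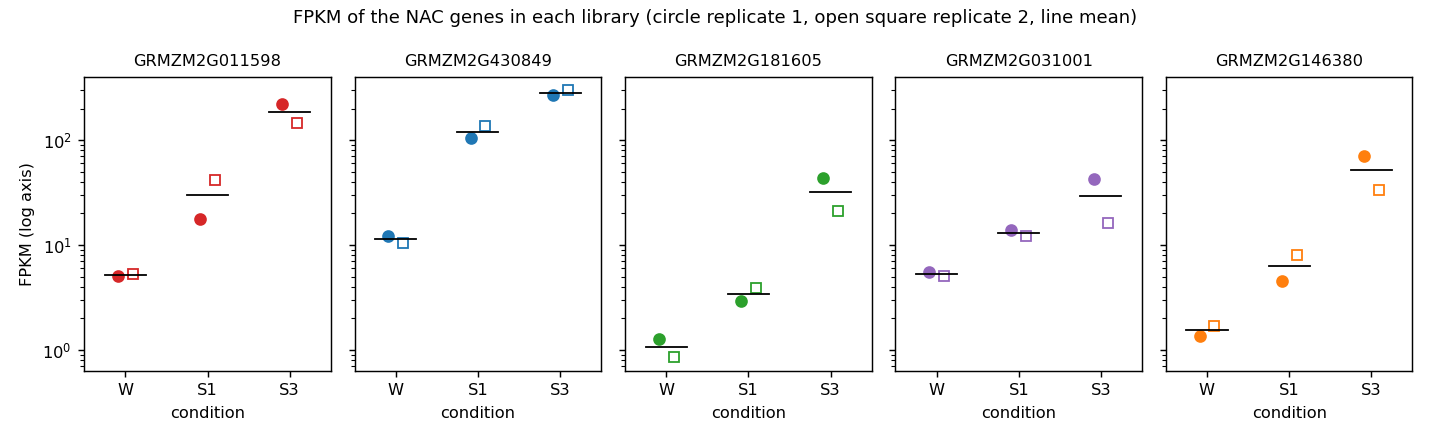
FPKM of each of the 5 NAC genes (vertical log axis, shared by all panels) in W, S1 and S3, with a filled circle for replicate 1, an open square for replicate 2 and a line for the mean. In every panel both S1 points lie above both W points and both S3 points above both S1 points, and the S3 replicates of GRMZM2G031001, 42.8 and 16.3 FPKM, lie farthest apart in ratio.

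All 5 genes had the order W below S1 below S3 with no overlap between libraries, which 9.63% of the 20130 tested genes also had. In S1 against W, 3 of the 5 were called higher (background 7.51% of tested genes). In S3 against S1, 4 of the 5 were called higher (background 9.17%), and in S3 against W all 5 (background 13.3%). The 3 called higher in both steps were GRMZM2G011598, GRMZM2G430849 and GRMZM2G146380, a class that holds 0.661% of tested genes. The count of 3 in S1 against W was 1 without replicate 1 of W and 5 without either S3 replicate, with GRMZM2G430849 called each time. GRMZM2G146380 lost this call also without replicate 2 of W or replicate 2 of S1. The background of S3 against W depended on the scaling, with 2673 genes called higher and 1751 lower here, 1982 and 2173 after upper-quartile scaling, 2150 and 2025 after median-of-ratios scaling, and 2033 and 2093 after quantile normalization. All 5 genes were called higher in S3 against W under each of these. These contrasts chose the genes, so nothing is read from the counts.

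In W the 5 genes were spread from the 8.7th to the 58.5th percentile of mean level among tested genes, and in S3 from the 79.1st to the 98.8th. In W the order of the means was GRMZM2G430849 at 11.4 FPKM, GRMZM2G031001 at 5.27, GRMZM2G011598 at 5.19, GRMZM2G146380 at 1.53 and GRMZM2G181605 at 1.06. GRMZM2G031001 and GRMZM2G011598 overlapped in W, and the other neighbours in that order did not. In S1 the means were 120.1 FPKM for GRMZM2G430849, 29.8 for GRMZM2G011598, 13.07 for GRMZM2G031001, 6.29 for GRMZM2G146380 and 3.42 for GRMZM2G181605, with no overlap between neighbours. In S3 the order was GRMZM2G430849 at 283.6, GRMZM2G011598 at 184.3, GRMZM2G146380 at 51.7, GRMZM2G181605 at 32.3 and GRMZM2G031001 at 29.6 FPKM. GRMZM2G011598, level with GRMZM2G031001 in W, lay above all 3 of the lower genes in S3, whose replicates overlapped each other.

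Summed over the 5 genes, the level was 25.4 and 23.4 FPKM in the W libraries, 144.0 and 201.3 in those of S1, and 647.6 and 515.3 in those of S3. As a share of the summed FPKM of the 30 tested NAC family genes this was 6.54% and 6.50% under W, 16.5% and 19.8% under S1, and 32.6% and 32.8% under S3. The S3 replicates had close shares, while in S1 both the sums and the shares lay apart. The 5 genes were chosen for rising in both steps, so a growing share was built in. NAC genes with no description or RefSeq name count in the family only if the study listed them.

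The genes differed in the share of the rise that the first stress gave, as a description. The first stress gave 72.6% of the log2 rise from W to S3 in GRMZM2G430849, 54.5% in GRMZM2G031001, 44.97% in GRMZM2G011598, 34.6% in GRMZM2G146380 and 27.9% in GRMZM2G181605. In FPKM, which weighs the higher levels more, the first step gave between 7.56% (GRMZM2G181605) and 39.9% (GRMZM2G430849) of the rise. With 1 library left out at a time, the share stayed between 68.5% and 76.6% in GRMZM2G430849, between 26.5% and 42.8% in GRMZM2G146380 and between 23.8% and 32.1% in GRMZM2G181605. It ranged from 32.5% to 57.4% in GRMZM2G011598 and from 41.5% to 79.2% in GRMZM2G031001, so for these the larger step depended on single libraries. The shares of the 2 lowest genes also grew with a pseudocount of 0.1. The first step was then 1.61 of a rise of 4.74 in GRMZM2G181605 and 1.92 of 4.90 in GRMZM2G146380. With the pseudocount of 1 it was 1.10 of 3.94 and 1.49 of 4.29.

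**Figure D2:**
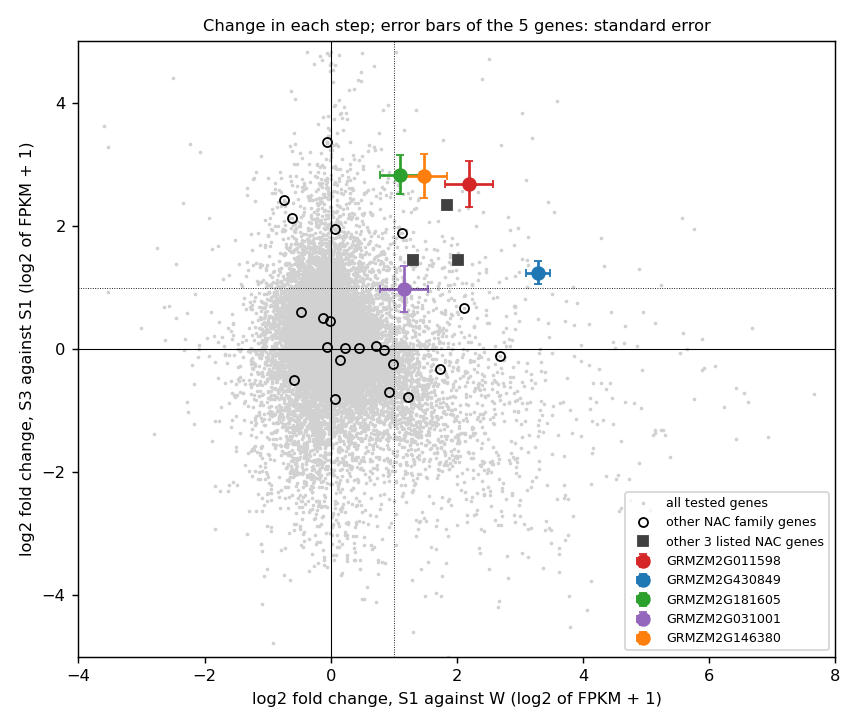
Log2 fold change of S1 against W (horizontal axis) and of S3 against S1 (vertical axis), on log2 of FPKM + 1, for all tested genes (grey), the 5 NAC genes (coloured, bars are 1 SE), the other 3 listed NAC genes (squares) and the other tested NAC family genes (open circles). Dotted lines mark a log2 fold change of 1, and 15 tested genes lie outside the axes. GRMZM2G430849 sits far right at 3.28 and 1.24, and GRMZM2G181605 and GRMZM2G146380 sit high, at 2.84 and 2.81 in the second step.

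The replicates of the stressed conditions lay farther apart in these genes than in the median gene. The median absolute difference in S1 was 0.363 log2 units over the 5 and 0.197 over all tested genes. In S3 replicate 1 was above replicate 2 in 4 of the 5, with a median difference of 0.99 log2 units, and GRMZM2G430849 was the exception. Over all tested genes the median absolute difference between the S3 replicates was 0.227 log2 units, and replicate 1 was the higher in 40.4% of genes. The NAC family genes off the study's list leaned the same way as the 5, with replicate 1 of S3 higher in 18 of 22. In S1 the lean was the opposite, with replicate 2 higher in 4 of the 5, most in GRMZM2G011598. All tested genes leaned the same way in S1, with replicate 1 the higher in 42.4%, and so did the NAC family genes off the list, at 40.9%.

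**Figure D3:**
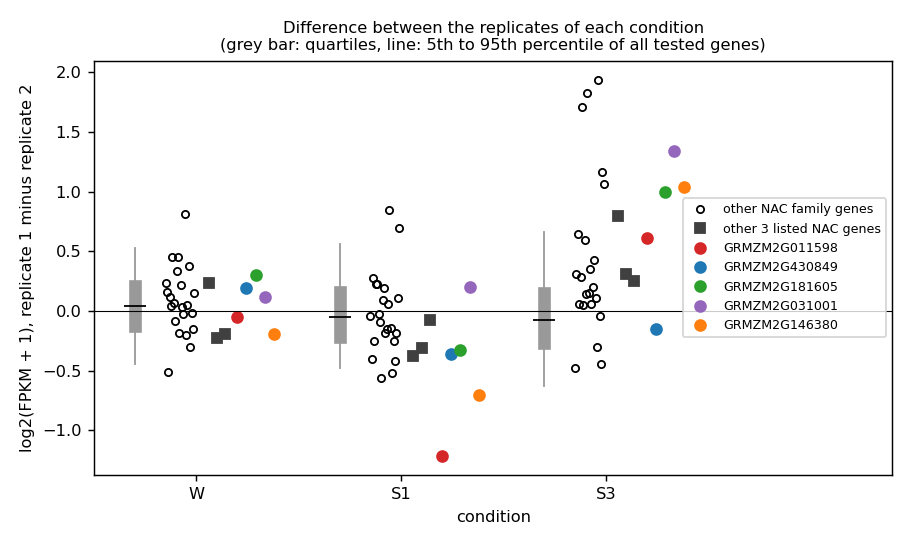
Difference of replicate 1 minus replicate 2 in log2(FPKM + 1) within W, S1 and S3 (vertical axis) for the 5 NAC genes (coloured), the other 3 listed NAC genes (squares) and the other tested NAC family genes (open circles), beside the quartiles (grey bar), the 5th to 95th percentile (grey line) and the median (black mark) of all tested genes. In S3, 4 of the 5 genes lie above 0, while the median of all tested genes is -0.08.

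The other 3 NAC genes of the same list also rose in both steps, with 44.2% to 58.2% of the log2 rise in the first. GRMZM2G109627 had 8.28 and 6.87 FPKM in watered leaves, 26.1 and 34.1 in the first stress, and 204.3 and 117.2 in the third. GRMZM2G159500, described as the GRAB2 protein, had 10.3 and 12.2 FPKM in the W libraries, 26.0 and 32.5 in those of S1, and 90.2 and 72.8 in those of S3. GRMZM2G083347 had 10.2 and 11.8 FPKM under W, 46.3 and 49.0 under S1, and 144.3 and 120.8 under S3. Their log2 fold changes ranged from 1.30 to 2.02 in the first step and from 1.45 to 2.34 in the second, and all 3 genes were called in both steps. The 5 genes reached further on both sides of these ranges.

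To see how far the rise belonged to the family, the remaining NAC genes were examined, found by description or RefSeq name. With the study's list of 8 added whatever their description, the family held 45 genes. Of these, 30 were tested, and 22 of the tested genes were off the list. NAC genes with neither a description nor a RefSeq name as NAC could enter only through that list. This remainder was set apart after the values were seen, and it lacks by construction the genes that the study placed on the list. Of the 22, 4 were called higher in S1 against W (18.2%, background 7.51%), 5 in S3 against S1 (22.7%, background 9.17%) and 8 in S3 against W (36.4%, background 13.3%). The counts against W include GRMZM2G336533, which passed the filter only through its S1 and S3 libraries. The median log2 fold changes of the 22 were 0.19, 0.03 and 0.61, beside medians of -0.01, 0.11 and 0.16 over all tested genes. Without either S1 replicate the count in S3 against S1 was 3. GRMZM2G167018 was the single family gene called lower in S3 against W, by -1.09 (SE 0.20, adjusted p = 0.00374, limma with Benjamini-Hochberg adjustment, background 8.7% called lower). No family gene was called lower in either step (background 1.54% in the first step and 9.22% in the second).

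Some genes of this remainder were called in the first step and not in the second. GRMZM2G347043 (SNAC1 in RefSeq, a name given in cereals to stress-responsive NAC genes) had 27.9 and 23.6 FPKM in watered leaves, 168.0 and 173.6 in the first stress, and 134.1 and 187.0 in the third. It rose by 2.69 in S1 (SE 0.20, adjusted p = 0.00024, limma with Benjamini-Hochberg adjustment), and its change from S1 to S3 was -0.11. Its S1 level was above that of GRMZM2G430849, and its S3 level below. GRMZM2G100583 (NAC75 in RefSeq) rose by 2.11 in S1 (adjusted p = 0.000205, limma with Benjamini-Hochberg adjustment). GRMZM2G336533 had 0.0353 and 0 FPKM in the W libraries, 1.82 and 3.06 in those of S1, and 1.43 and 1.997 in those of S3. It rose by 1.73 in S1 but passed the filter only through its stressed libraries, so its call is not read as a result. For GRMZM2G100583 and GRMZM2G336533 the changes from S1 to S3, 0.66 and -0.33, were not called.

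Other genes of the remainder were called in the second step and not in the first. GRMZM2G134073 had 3.98 and 3.50 FPKM in the W libraries, 4.77 and 2.57 in those of S1, and 66.9 and 31.4 in those of S3. It rose by 3.37 in S3 against S1 (SE 0.36, adjusted p = 0.00057, limma with Benjamini-Hochberg adjustment), a larger second step than in any of the 5 genes. GRMZM2G009892 rose by 2.42 (SE 0.48, adjusted p = 0.00712) and GRMZM5G898290 by 2.14 (SE 0.35, adjusted p = 0.00312, limma with Benjamini-Hochberg adjustment for both). In S1 these 3 genes differed from W by -0.06, -0.75 and -0.62, none of which was called. The remainder also held genes with the order of the 5 and no overlap, looked up after values were seen. GRMZM2G180328 had 4.69 and 3.38 FPKM under W, 9.01 and 10.9 under S1, and 77.8 and 19.6 under S3, with log2 fold changes of 1.13 (not called) and 1.88 (called). GRMZM2G100583 also had this order, with 23.7 and 23.2, 99.0 and 110.3, and 169.5 and 162.5 FPKM, and its second step (adjusted p = 0.0139, limma with Benjamini-Hochberg adjustment) missed the fold threshold alone.

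Since relatives of NAP and NAC046 are known in Arabidopsis for senescence and chlorophyll breakdown, genes described with a role in chlorophyll breakdown were compared. Of 4 such genes 3 were tested, and 2 were called higher in S3 against W (background 13.3%). GRMZM2G091837 (SGR2), a stay-green protein of the kind that starts chlorophyll degradation, had 3.75 and 2.75 FPKM under W, 19.6 and 21.3 under S1, and 164.4 and 95.3 under S3. Its log2 fold changes, 2.34 and 2.56, were near those of GRMZM2G011598, and its change of S3 against W was 4.90 (SE 0.26, adjusted p = 2.61e-05, limma with Benjamini-Hochberg adjustment). GRMZM2G379563 (SGR1) was listed at 0 in 3 of the 4 W and S1 libraries and had 2.68 and 1.35 FPKM in S3. It passed the filter only through its S3 libraries, so its call in S3 against W is not read as a result. The untested gene, GRMZM2G103881, carries the same RefSeq name, SGR1. With a pseudocount of 2 or a filter at 5 FPKM the list had 1 call. GRMZM2G349062, a pheophorbide a oxygenase of the later pathway, was not called, with a log2 fold change of 0.20.

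The 2 genes found by a description in ABA synthesis were both called higher in S3 against W (background 13.3%). Genes without such a description were missed. The study names GRMZM2G110192, an NCED4 homolog that was repressed in S1. It also names GRMZM2G126505, related to CYP707A3 of ABA metabolism and induced in both steps. Neither was examined here, so the 2 genes do not stand for the pathway. GRMZM2G014392 (vp14), a 9-cis-epoxycarotenoid dioxygenase, the enzyme that commits carotenoids to ABA, had 0.519 and 0.391 FPKM in watered leaves, 208.3 and 150.1 in the first stress, and 62.0 and 68.1 in the third. It rose by 6.93 in S1 but passed the filter only through its S1 and S3 libraries, so its calls against W are not read as a result. From S1 to S3 it fell by 1.43 (adjusted p = 0.00133, limma with Benjamini-Hochberg adjustment). GRMZM2G127139, described as a zeaxanthin epoxidase of the same pathway, had 34.5 and 23.7 FPKM in the W libraries, 40.0 and 50.1 in those of S1, and 91.7 and 159.2 in those of S3. It rose by 1.41 from S1 to S3 (adjusted p = 0.00856, limma with Benjamini-Hochberg adjustment).

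Each NAP relative was placed near a NAC046 relative in the genome, GRMZM2G430849 by RefSeq order and GRMZM2G011598 by locus numbers alone. RefSeq puts GRMZM2G430849 and GRMZM2G181605 on chromosome 7 with 6 protein-coding genes between them. GRMZM2G031001 and GRMZM2G011598 had no RefSeq match, but their locus numbers in the authors' table, 3749 and 3751, are 2 apart. Of 8993 gene pairs with such numbers that RefSeq does place, 97.1% lie on 1 chromosome with at most 10 genes between. The locus numbers of the chromosome 7 pair, 32829 and 31292, lie far apart, so locus numbers and RefSeq do not place that pair alike. Over both steps the log2 fold change was 4.87 in GRMZM2G011598 and 2.14 in GRMZM2G031001. In the chromosome 7 pair it was 4.53 in GRMZM2G430849 and 3.94 in GRMZM2G181605, but with a pseudocount of 0.1 it was 4.63 and 4.74, so the order of this pair turned. Neither difference was tested.

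The genes around the pairs did not all rise. Of 7 tested genes around the chromosome 7 pair, 2 were called higher in S3 against W (background 13.3%) and none lower at the same threshold (background 8.7%). With so few genes these counts are not set apart from the background. These are GRMZM2G348125 and GRMZM2G410766, which lie between the NAC genes, are both described as a stress responsive protein, and rose by 1.74 and 1.85. Their values were alike in each library, so reads may have been shared between them. Of 7 tested genes around the other pair, GRMZM2G102365 was called higher in S3 against W, by 1.90, and GRMZM2G020940 lower, by -1.75. GRMZM2G020940, whose locus number falls between those of the NAC genes, had 415.5 and 517.6 FPKM under W, 576.7 and 625.4 under S1, and 147.3 and 127.2 under S3.

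**Figure D4:**
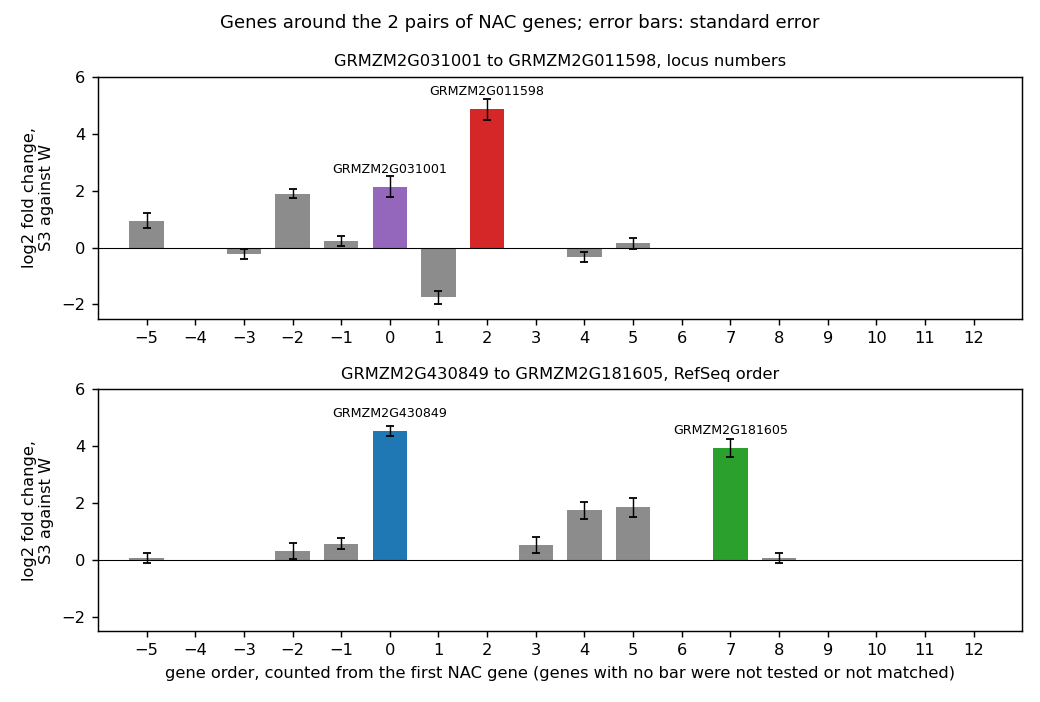
Log2 fold change of S3 against W (bars, with SE) for the NAC pair and its neighbours, in order along the genome counted from the first NAC gene (horizontal axis), by locus number in the upper panel and RefSeq order in the lower. Genes with no bar were not tested or not matched. The NAC genes, at 2.14, 4.87, 4.53 and 3.94, have the highest bars of their windows, and the gene between the upper pair fell by 1.75.

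The profiles of the 5 genes over the 6 libraries had Pearson correlations of log2(FPKM + 1) between 0.86 (GRMZM2G430849 and GRMZM2G181605, the chromosome 7 pair) and 0.99 (GRMZM2G181605 and GRMZM2G146380). Of the other 20125 tested genes, 619 (3.08%) had a correlation of at least 0.95 with the mean standardised profile of the 5, a measure of shape alone over 3 conditions. The nearest was GRMZM2G109627, the listed NAC gene above, at 0.9987. The next were GRMZM2G150014 at 0.9985 and GRMZM2G099481 at 0.9984, neither with a described function. GRMZM2G151223 (HK1, histidine kinase 1, of a family that includes cytokinin receptors) followed at 0.9981, with 3.0 and 3.35 FPKM in watered leaves, 8.63 and 10.2 in the first stress, and 42.5 and 24.4 in the third. GRMZM2G124416, at 0.9975, rose far less, with 30.9 and 30.1 FPKM in the W libraries and 48.7 and 43.5 in those of S3.

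Other features of the libraries were compared with the conditions. The median FPKM of tested genes was 8.48 and 8.38 under W, 9.09 and 9.27 under S1, and 9.77 and 10.26 under S3, the same order as in the 5 genes but with a far smaller spread, and its part in the result was not tested. The summed FPKM per library lay between 568731 and 672411, and between 11742 and 12373 genes were listed at 0, both overlapping between conditions. Leaf identity was checked with 5 photosynthesis genes. GRMZM2G306345, the pyruvate orthophosphate dikinase gene, was the exception among them. It had 11253 and 8819 FPKM in the W libraries and 5635 and 6695 in those of S3, but was listed at 0 in both S1 libraries. Whether this 0 is a level or a missing value was not tested, and it also enters the summed FPKM of S1. The other 4 summed to 4585 and 3007 FPKM in the W libraries, 3932 and 3995 in those of S1, and 931 and 1530 in those of S3, so they were lower in S3, where the 5 NAC genes were highest, and their part in the result was not tested. The meristem gene KNOTTED1 was at most 0.0605 FPKM in any library, and 20 of 24 zein genes, which mark seed, were at 0 in all 6.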

How the data were processed

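RNA-seq was made from leaves in 3 conditions with 2 replicates each. SE and p-values measure only the spread between these replicates. The FPKM were not turned back into read counts, so no counting limit is given. The authors aligned reads to B73 RefGen_v2 with bowtie and tophat, assigned them to the Filtered Gene Set and computed the deposited FPKM with cuffdiff. The submitters' processing notes name CASAVA 1.8.2, TopHat 0.12.8 and Cuffdiff. This TopHat version differs from the one the study gives, so the version used is not certain. W and S1 come from 1 cuffdiff run and S3 from another. Both runs were put on 1 scale by a factor of 0.9934 on S3. This is the median, over 18865 genes, of mean S1 FPKM in the libraries divided by S1 FPKM in the authors' table (97.5% of genes within 0.5%). That table also holds the authors' fold changes (log2) and q-values, which were not used.

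Testing required 1 FPKM or more in 2 or more libraries, which kept 20130 genes and all 5 members. limma 3.58.1 in R 4.3.3 was fitted on log2(FPKM + 1) of the 6 libraries, with condition means and a trend of variance on level, and p-values were adjusted by Benjamini-Hochberg over all tested genes. In simulated data, changes were put in on the log2(FPKM + 1) scale, in genes of higher level only. Unbiased estimates there followed from the model and do not test the pseudocount. The model missed some of the altered genes in each comparison, so the lack of a call does not mean a stable level. Python 3.11.15 was used for summaries. The alternatives were a pseudocount of 0.1 or 2, no filter or a filter at 5 FPKM, 3 other scalings, no factor between runs, only the 4 libraries compared, the replicate number as a block, an adjusted p of 0.01, no fold threshold, and each library left out.

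The members and lists were chosen with earlier results of these data known. Named family genes are, for each step and direction, the 3 with the largest change among those called without overlap. From the chlorophyll and ABA lists every gene called in S3 against W is named, with GRMZM2G349062, GRMZM2G180328, neighbours of the pairs and GRMZM2G167018 added after their values were seen. Names came from the authors' descriptions, absent for 19801 genes, and from 18773 matches in a RefSeq gene table of the assembly Zm-B73-REFERENCE-NAM-5.0, used for names and gene order only. Promoter and protein sequences were not analysed here.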

Additional observations from a re-analysis of the deposited data

How the results depend on the processing

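Of the log2 fold changes of the 5 genes under the alternatives, 143 differed from the values reported, and all 143 kept their direction, which is also the direction the genes were chosen for. Of 18 alternatives, the call of S3 against W held in 18 for each of the 5 genes, and that of S3 against S1 in 18 for each but GRMZM2G031001, which was called in 1 (without replicate 2 of S3). The call of S1 against W held in 18 for GRMZM2G430849, 17 for GRMZM2G011598 and 10 for GRMZM2G146380. It was gained in 5 for GRMZM2G181605 and in 3 for GRMZM2G031001. Members called in S1 against W numbered 5 with only the 4 libraries compared, in place of 3, and 1 to 5 with a library left out (1 without replicate 1 of W, when GRMZM2G430849 alone was called). The member median ranged from 2.07 to 3.0 for S3 against S1 (2.07 without replicate 1 of S1) and from 3.77 to 4.45 for S3 against W (3.77 without replicate 1 of S3).

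Of the 22 NAC genes off the list, 3 rather than 5 were called in S3 against S1 without a filter and at an adjusted p of 0.01, and 3 to 6 with a library left out (3 without either S1 replicate). For S3 against W the count was 5 at 0.01, in place of 8, and 6 to 10 with a library left out. A pseudocount of 2 or a filter at 5 FPKM left 1 chlorophyll breakdown gene called. In S3 against S1, 1846 genes were called higher and 1855 lower, and 1472 and 2072 after median-of-ratios scaling. Other scalings moved the median of all genes for S3 against W from 0.16 to between -0.04 and 0.02. The cause of these shifts was not tested.

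Same-numbered replicates deviated from their condition means with correlations of 0.14 (W and S1), -0.09 (W and S3) and 0.06 (S1 and S3), so the numbers were not taken to pair the libraries. The study gives different read lengths for first and second replicates, so the number also marks a sequencing difference shared by the conditions. With the replicate number as a block 2 members were called in S1 against W, GRMZM2G146380 having lost its call, and the counts of members in the other comparisons stayed at 4 and 5. FPKM from 2 pools per condition limit the precision.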
